A study of Homo sapiens with 12 samples.

Results

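Long intergenic noncoding RNA genes whose symbol begins with LINC were examined where they lie away from protein-coding genes. A LINC gene on chromosomes 1 to 22 was taken when its body was more than 5 kb from the body of every protein-coding gene in the RefSeq GRCh38.p14 gene table. This gave 1937 genes, hereafter the members, of 36921 protein-coding and lncRNA genes in that table. The rule used no measured value, but it was chosen with earlier results of these data known. Each member was represented by the 2500 bp on either side of both its ends, and its value in a library was the number of base pairs of that window covered by peaks. The window held 10002 bp for 1490 members and as little as 5392 bp where the windows of a short gene's ends ran together. Members were a median of 15.03 kb long and a median of 85.3 kb from the nearest coding gene. The windows of 209 members overlapped those of another member, so neighbouring members are not independent and can share a peak.

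H3K27me3 is the histone mark laid down by Polycomb repressive complex 2, whose catalytic subunit is EZH2, and it covers silent developmental genes in broad domains. H3K4me3 marks the starts of active genes, and a promoter that carries both marks is called bivalent. LINC genes encode transcripts without a protein product, many of them restricted to a tissue, and several lie beside developmental transcription factors.

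The marks were mapped by CUT&RUN, in which an antibody directs a nuclease to cut out the chromatin it binds, in cells of MKL-1, a line established from a Merkel cell carcinoma. Vehicle cultures received 1% ethanol. Treated cultures received 3 µM EPZ011989, an inhibitor of EZH2, in the same 1% ethanol. Both were harvested on day 6 after a change of medium on day 3, and each culture was divided among antibodies to H3K27me3, to H3K4me3 and control IgG, which gave 6 groups of 2 libraries. All 12 libraries come from 1 cell line, so p-values measure only the spread between duplicate cultures of that line.

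The deposited lists held 40186 and 43634 H3K27me3 peaks on chromosomes 1 to 22 in vehicle replicates 1 and 2, against 361 and 22 with EPZ011989. The H3K4me3 lists held 20532 to 23193 peaks. Read depth is unknown. A stand-in for it, the background in fragments per base that the folds and p-values of the smallest peaks imply, was 1.12 and 1.63 in the vehicle H3K27me3 libraries and 0.373 and 0.148 in the treated ones. For H3K4me3 it was 0.572 and 0.857 in vehicle and 1.48 and 1.24 with EPZ011989, so both marks differ in this measure between treatments, and its part in the results below was not tested. No member window held a peak in any of the 4 IgG libraries. As a check of the cell line, 11 of 11 Merkel cell and neuroendocrine markers in the table carried H3K4me3 in both vehicle libraries, among them ATOH1, SOX2, ISL1 and KRT20, against 1 of 5 keratinocyte, 3 of 4 fibroblast, 2 of 6 lymphoid and myeloid and 1 of 3 endothelial markers. PTPRC, CD3E, PECAM1, KRT5 and KRT14 had none.

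Promoters of 5 members show the range of sequence behind the results. Each runs 5′ to 3′ on the gene's strand from 250 bp before to 50 bp after the start, taken from RefSeq (GRCh38.p14), with CG dinucleotides in capitals. LINC02323 (chr14:102545004-102545303, plus strand) is shown because its promoter carried H3K27me3 alone in vehicle and H3K4me3 alone after treatment.
LINC02323: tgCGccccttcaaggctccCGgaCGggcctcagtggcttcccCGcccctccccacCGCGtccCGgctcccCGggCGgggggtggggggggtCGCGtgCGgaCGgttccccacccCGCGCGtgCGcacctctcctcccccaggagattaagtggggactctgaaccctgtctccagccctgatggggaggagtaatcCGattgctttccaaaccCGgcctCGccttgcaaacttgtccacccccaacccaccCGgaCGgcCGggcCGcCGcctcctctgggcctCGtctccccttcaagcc
LINC01558 (chr6:167796810-167797109, minus strand) and LINC01994 (chr3:182486313-182486612, minus strand) had the widest H3K4me3 of the members without H3K27me3.
LINC01558: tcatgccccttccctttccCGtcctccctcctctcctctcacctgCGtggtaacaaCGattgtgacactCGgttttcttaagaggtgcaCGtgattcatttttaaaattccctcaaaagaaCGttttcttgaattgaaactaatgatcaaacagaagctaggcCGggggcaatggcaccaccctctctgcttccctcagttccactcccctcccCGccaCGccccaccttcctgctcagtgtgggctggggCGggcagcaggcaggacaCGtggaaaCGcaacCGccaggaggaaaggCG
LINC01994: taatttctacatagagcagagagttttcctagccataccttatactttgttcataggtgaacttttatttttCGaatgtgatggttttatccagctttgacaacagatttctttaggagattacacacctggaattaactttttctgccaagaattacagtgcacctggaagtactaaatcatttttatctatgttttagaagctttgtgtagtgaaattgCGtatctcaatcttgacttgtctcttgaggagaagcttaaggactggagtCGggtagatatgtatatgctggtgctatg
LINC03141 (chr12:4011659-4011958, plus strand) lies inside one of the longest H3K27me3 regions.
LINC03141: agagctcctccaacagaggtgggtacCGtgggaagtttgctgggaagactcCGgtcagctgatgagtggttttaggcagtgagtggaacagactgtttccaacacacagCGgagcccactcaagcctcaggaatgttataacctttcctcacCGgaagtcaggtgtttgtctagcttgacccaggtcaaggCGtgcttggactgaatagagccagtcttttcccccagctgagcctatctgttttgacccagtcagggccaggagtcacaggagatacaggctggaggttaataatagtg
LINC01585 (chr15:90659984-90660283, plus strand) gained a H3K4me3 peak in its window, but not at this promoter.
LINC01585: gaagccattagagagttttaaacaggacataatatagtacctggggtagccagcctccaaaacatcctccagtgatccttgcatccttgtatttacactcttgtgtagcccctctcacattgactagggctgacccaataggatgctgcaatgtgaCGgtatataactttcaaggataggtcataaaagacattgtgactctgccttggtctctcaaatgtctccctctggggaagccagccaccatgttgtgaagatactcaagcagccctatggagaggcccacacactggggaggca
The LINC02323 promoter held 26 CG dinucleotides in 300 bp, LINC01558 held 14, LINC03141 held 5, LINC01994 held 3 and LINC01585 held 1. H3K4me3 covered all 300 bp of LINC01558 and LINC01994 in each of the 4 libraries although these promoters differ in CG content.

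In vehicle cells most LINC windows carried neither mark, and H3K27me3 was the more frequent mark in the lists as deposited. H3K27me3 peaks touched the windows of 426 members in both vehicle libraries, which is 21.99% (exact 95% binomial interval 20.2 to 23.9, counting error only), beside a background of 31.4% over all genes of the table. H3K4me3 did so at 204 members, or 10.53% (9.20 to 12.0), beside 45.0%. Both marks were present at 68 members, or 3.51%, beside 17.2%. Neither mark was found in any vehicle library at 1246 members, or 64.3%, beside 36.2%. The members' shares were below the table's for each mark, and the gap was wider for H3K4me3. The order of the marks among members depended on the peak threshold. At a −log10 q of at least 5, 188 members had a H3K27me3 peak in 1 or more libraries of either treatment. A H3K4me3 peak was found at 235 by the same rule.

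The distance to the nearest coding gene separated the members. Vehicle H3K27me3, in both replicates, was found at 35.7% of the 342 members 5 to 20 kb away (30.6 to 41.0) and at 9.40% of the 553 members more than 200 kb away (7.10 to 12.1). H3K4me3 was present at 19.01% (14.99 to 23.6) of the nearest members and at 4.52% (2.95 to 6.60) of the farthest. The groups between, at 20 to 50 kb and 50 to 200 kb, held H3K27me3 at 29.9% and 20.7% and H3K4me3 at 13.8% and 9.22%. Both shares thus stepped down with distance, and for each mark the intervals of the nearest and the farthest members do not meet. LINC genes within 5 kb of a coding gene, 327 in number, had H3K27me3 at 37.0% and H3K4me3 at 36.4%. Other lncRNA genes more than 5 kb away, 6966 in number, had 18.8% (17.9 to 19.8) and 5.54% (5.02 to 6.10), so the members lay above them for both marks with intervals that do not meet. These intervals treat genes as independent, which neighbours are not.

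**Figure D1:**
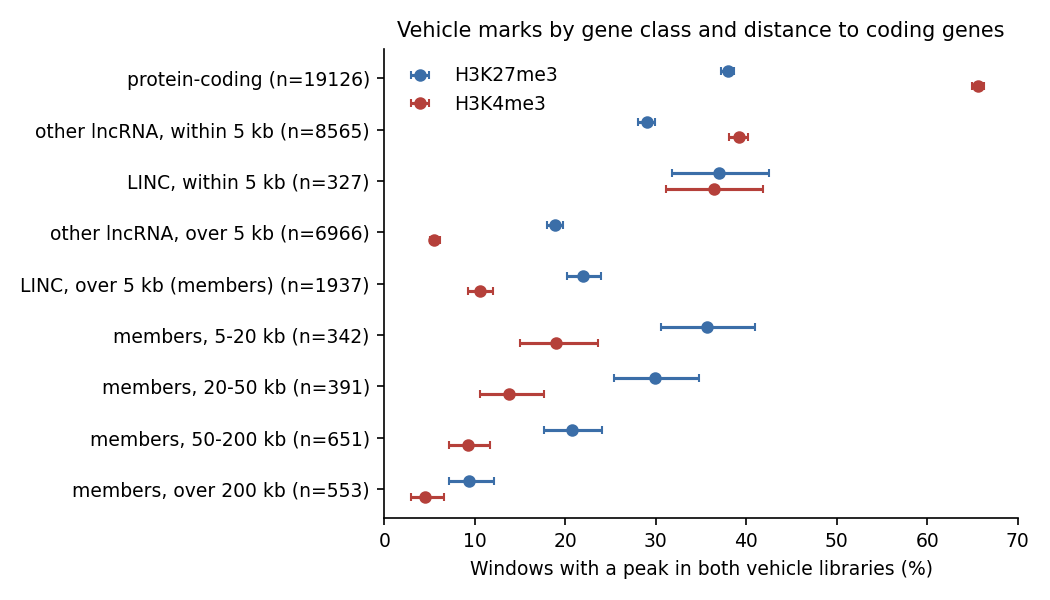
Percentage of windows with a peak in both vehicle libraries (horizontal axis) for gene classes and for members by distance to the nearest coding gene (vertical axis); points are shares and bars exact 95% binomial intervals. Among members, H3K27me3 (blue) goes from 35.7% to 9.40% and H3K4me3 (red) from 19.01% to 4.52% between the nearest and the farthest group.

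Genes just inside and just outside the 5 kb limit ranged from unmarked to covered whole. LINC00940, 5015 bp from DCP1B, and LINC02596, 5034 bp from RAP1GAP, had neither mark. LINC00945, 5062 bp from OLIG1, a neural transcription factor gene, had 7790 bp and 10002 bp of H3K27me3 in vehicle. Just outside the limit, LINC02396 at 4982 bp had 0 and 185 bp, LINC02265 at 4914 bp had no mark, and LINC01864 at 4874 bp had 10002 bp in both vehicle libraries. Marked and unmarked genes therefore stood on both sides.

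The marks were placed differently along the genes. Of 983 members with a known strand and separate windows at each end, 174 (17.7%) had H3K27me3 at the start and 153 (15.6%) at the end in both vehicle libraries, and 107 had it at both ends. H3K4me3 was at the start of 89 (9.05%) and at the end of 19 (1.93%), with 7 at both. Among the 1310 members with a known strand, H3K4me3 lay over the start itself in 7.63% and 8.02% in the vehicle libraries and in 8.02% and 7.02% with EPZ011989. H3K27me3 lay over it in 13.3% and 14.96% in vehicle, and 10 kb upstream it still covered 9.69% and 10.8%. H3K4me3 was thus a narrow peak at the start, while H3K27me3 formed a shallow rise over a broad base. No start was covered by H3K27me3 in either treated library.

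**Figure D2:**
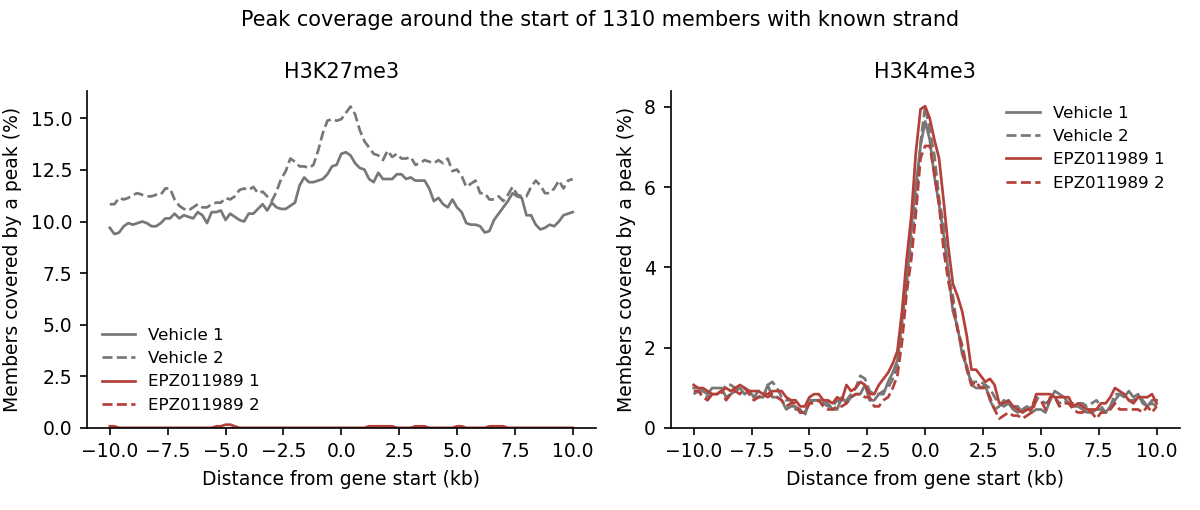
Percentage of the 1310 members with known strand covered by a peak (vertical axis) against the distance from the gene start in kb (horizontal axis; negative is upstream), 1 line for each library. Vehicle H3K27me3 is at 13.3% and 14.96% at the start with a broad base and lies near 0 with EPZ011989; H3K4me3 peaks at 7.02% to 8.02% in all 4 libraries.

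Median CG content of the promoter differed among members grouped by their vehicle marks. CG dinucleotides are the substrate of DNA methylation and are dense at most coding promoters. The 1310 members with an entry in the promoter table had a median of 3.5 CG per 300 bp, against 14 over all 26246 promoters and 22 over 15101 coding promoters. Members without either mark had a median of 3 (813 promoters), those with H3K27me3 and no H3K4me3 a median of 5 (254), those with H3K4me3 and no H3K27me3 a median of 11 (79), and those with both marks a median of 17 (51). The motif TATAAA, searched on both strands, was in 9.69% of member promoters and 7.80% of all. The LINC02323 promoter printed above, with 26 CG, lay above the median of every one of these classes. These are descriptions without a test.

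The H3K27me3 regions that met LINC windows were of very different lengths, and some held coding genes while others held none. In 68 members (3.51%) the whole window was covered in both vehicle libraries, beside 1168 of all 36921 genes (3.16%). The 426 marked members fell in 389 distinct merged vehicle regions, taking the longest that touched each window. Over the members, the length of this region had a median of 7.66 kb (quartiles 3.33 and 22.1), so a shared region counts more than once. The median over all 53388 merged regions, each counted once, was 1.21 kb, and a longer region meets a window more easily. For 112 members (26.3%) the region was at least 20 kb long, and the regions of 57 of these members reached a coding gene body while those of 55 did not. LINC03057, 8446 bp from HOXB9, lay in a 698 kb region that holds the HOXB genes, which set position along the body axis. LINC03141 lay in a 450 kb region (chromosome 12, 3872740 to 4322443) with CCND2, and LINC02952 in a 334 kb region with CCND1, both genes of D-type cyclins that drive entry into the cell cycle. All 3 had 10002 bp in each vehicle library, the whole window.

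Many members tied at 10002 bp in both vehicle libraries, and LINC03057, LINC03141, LINC02952 and the 9 that follow were taken from the tie as those in the longest regions, 1 for each region. Coding genes of several kinds lay in 7 of these 9 regions, and the other 2 regions reached none. LINC01411 shared a 321 kb region with MSX2, a homeobox gene of skull and limb development. LINC02188 shared 306 kb with FOXC2 and FOXL1, LINC01081 shared 260 kb with FOXF1, a forkhead gene of lung and gut mesenchyme, and LINC01056 shared 181 kb with BHLHE23. LINC01839 shared 165 kb with EPHB3, a receptor for ephrins, LINC01044 158 kb with SPACA7, and LINC01801 91.8 kb with ZNF599. LINC02181 lay in a 216 kb region and LINC00354 in one of 91.6 kb, neither of which reached a coding gene body. The longest region without a coding gene, 294 kb on chromosome 10 from 128891306 to 129185615, covered 8439 bp of the LINC02667 window in both vehicle libraries; it was picked out after its length was seen.

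Members whose nearest coding gene is a developmental regulator, judged by the symbol patterns of homeobox, forkhead, SOX, T-box and similar families, numbered 117. H3K27me3 marked 46 of them in both vehicle libraries (39.3%, 30.4 to 48.8) and H3K4me3 marked 6 (5.13%, 1.90 to 10.8). Of the other 1820 members, 20.9% (19.03 to 22.8) had H3K27me3 and 10.9% (9.49 to 12.4) had H3K4me3. LINC01396, 8838 bp from MSX1, LINC02786, 83122 bp from POU3F1, and LINC00917 and LINC02135, 164848 and 217138 bp from FOXF1, had 10002 bp of H3K27me3 in both vehicle libraries and no H3K4me3 in any of the 4. In 2 of the 117 both marks were present in both vehicle libraries. LINC00466, 5310 bp from FOXD3, a neural crest regulator, had 3393 and 3498 bp of H3K27me3 and 1590 and 2510 bp of H3K4me3. LINC00518, 8126 bp from TFAP2A, had 263 and 921 bp of H3K27me3 and 1123 and 1213 bp of H3K4me3. The H3K27me3 intervals of the 117 and the 1820 do not meet, while the H3K4me3 intervals do; members nearest the same regulator can share 1 domain, so they are not separate observations.

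With EPZ011989 the H3K27me3 peaks were lost from nearly every LINC window. The merged member windows held 1786 kb and 2022 kb of H3K27me3 in vehicle replicates 1 and 2, and 1.68 kb and 0 kb with EPZ011989. The groups were far apart, at 1904 ± 166 kb against 0.84 ± 1.19 kb (SD, n = 2), a difference of -11.15 on the log2 scale of the summed length. An exact two-sided permutation test gave p = 0.333, the smallest that 6 labellings of 2 against 2 libraries allow. Of the 426 members marked in both vehicle libraries, 424 (99.5%) had no H3K27me3 peak in either treated library, and over all genes 11542 of 11598 (99.5%) had none, so the loss was as complete outside the LINC windows. By limma over 15200 genes with Benjamini-Hochberg adjustment, 323 of the 569 members tested (56.8%) were lower at an adjusted p under 0.05, beside 59.5% of all genes tested, and 0 were higher (0 also at an unadjusted p under 0.05, where 342 were lower, or 60.1%, beside 63.5% of all genes). Because only 2 members had a treated peak, nearly all members entered the test through their vehicle peaks, so the direction was set by that filter and the count is no support for it. The median change was -2488.5 bp over the members and -2298.25 bp over all genes tested. In 74 members (13.01%) the replicates did not vary within either group, so their p-values rest on the variance shared across genes. Leaving out a library leaves 1 sample in its group, which is then assumed to vary like the other group. Without a treated library the count was 151 (replicate 1) or 152 (replicate 2). Without a vehicle library 530 of 532 (replicate 1) or 461 of 463 (replicate 2) were called, which follows from treated values of 0 bp without spread and says nothing on stability.

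Both members that kept a H3K27me3 peak lay in the HOXB domain, and they overlap each other. At LINC03057 the window held 10002 bp and 10002 bp in vehicle and 1138 bp and 0 bp in EPZ011989 replicates 1 and 2. At LINC02086 it held 10002 bp and 10002 bp, then 1030 bp and 0 bp. The remaining cover was therefore seen in 1 treated library only, and vehicle and treated values did not overlap. The change was -9433 bp at LINC03057 (SE 561, limma adjusted p = 0.00759) and -9487 bp at LINC02086 (SE 508, adjusted p = 0.00637). Without vehicle replicate 1 the limma adjusted p-values were 0.0665 and 0.06, and without vehicle replicate 2 they were 0.0666 and 0.06. There the spread comes from the treated pair alone, so these values do not bear on whether the change is stable.

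H3K4me3 over the LINC windows showed no common direction. The windows held 283 kb and 290 kb in vehicle and 327 kb and 255 kb with EPZ011989, so the treated libraries lay on either side of the vehicle ones. The means were 287 ± 5.26 kb and 291 ± 51.0 kb (SD, n = 2), a difference of 0.02 on the log2 scale, with an exact two-sided permutation p of 1.0. In limma over 18193 genes, 0 of the 263 members tested were higher and 0 lower at an adjusted p under 0.05, beside 0.00% of all genes in either direction. At an unadjusted p under 0.05, 17 members (6.46%) were higher, beside 8.66% of all genes, and 12 (4.56%) were lower, beside 1.57%. The median difference was 27.5 bp over the members tested, but -153.5 bp when the first EPZ011989 replicate was left out and 174 bp when the second was, so its sign rests on a single library. Both treated values lay above both vehicle values at 56 members (2.89%, beside 12.2% of all genes) and below them at 44 (2.27%, beside 6.00%). These shares are over all members and all genes, of which only 263 members and 18193 genes had any H3K4me3 peak. With a peak in all 4 libraries, both treated values were higher at 44 of 172 members and lower at 28. Over all genes with such peaks they were higher at 4049 of 16305 and lower at 2070. A gap of at least 1000 bp between the closest values of the 2 groups was seen upward at 2 members (background 0.536%) and downward at 0 (0.0190%).

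Members were also divided by vehicle H3K27me3. Of the 56 members with both treated values higher, 35 (62.5%) had H3K27me3 in both vehicle libraries, and of the 44 with both lower, 8 (18.2%) had it. The shares over all genes were 67.5% and 18.1%. Among the 172 members with a H3K4me3 peak in all 4 libraries, the median difference was 173.5 bp for the 62 with H3K27me3 in both vehicle libraries and -88.5 bp for the 86 with none. Over all genes with a peak in all 4 libraries the same medians were 207 bp (6290 genes) and -29.5 bp (7856 genes), so the contrast was also seen beyond the LINC windows. Each of the 4 pairs of a treated with a vehicle library gave a higher median in the first class, at 254.5, 197, 88.5 and 54.5 bp against 75, 48, -226.5 and -172 bp. The sign within the second class thus depended on the treated library, while the order of the classes did not in these pairs, which share libraries. The classes began at different H3K4me3 widths. In vehicle replicates 1 and 2 the medians were 1111.5 and 1132 bp in the first class and 1779 and 1768.5 bp in the second. The part of this starting width was not tested, nor was the difference between the classes.

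**Figure D3:**
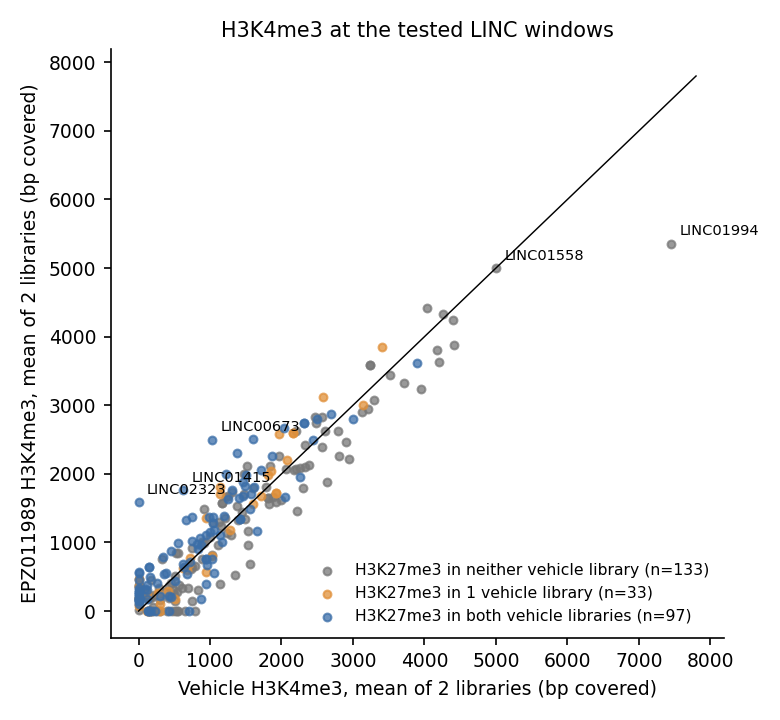
Mean H3K4me3 of the 2 EPZ011989 libraries (vertical axis, bp of window covered) against that of the 2 vehicle libraries (horizontal axis) for the 263 members tested, coloured by vehicle H3K27me3; the line marks equal values. LINC02323 and LINC00673 lie above the line and LINC01994 below it, and none passed the adjusted threshold.

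The member with the clearest H3K4me3 increase was LINC02323, whose gene runs from 102545254 to 102555826 on the plus strand of chromosome 14 (GRCh38.p14). H3K4me3 covered 0 bp and 0 bp of its window in vehicle replicates 1 and 2 and 1701 bp and 1481 bp in EPZ011989 replicates 1 and 2. H3K27me3 covered 5001 bp in both vehicle libraries, the whole window at the start, and 0 bp in both treated ones. The H3K4me3 peaks ran from 696 bp before the start to 1004 bp after it and from 892 bp before to 588 bp after, so each covered the whole promoter printed above. The groups did not overlap, and the difference was 1591 bp (SE 169), with a limma adjusted p of 0.107, the lowest of the members. It passed in 2 of the alternatives, at an adjusted p of 0.0425 with 5000 bp on either side and 0.0284 after quantile normalization; over the other alternatives it ranged from 0.107 to 1. The authors' −log10 q of these peaks, 11.3 and 10.1, was below the medians of their lists, 79.8 and 43.6.

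LINC00673, a transcript studied in pancreatic cancer and melanoma, had H3K4me3 over 826 bp and 1243 bp in vehicle and over 2559 bp and 2436 bp with EPZ011989. The groups did not overlap, and the peak at its start reached farther into the gene in both treated libraries. The difference was 1463 bp (SE 213, limma adjusted p = 0.161), and vehicle H3K27me3 covered 8205 and 8792 bp of the window. LINC01415 had 410 and 833 bp in vehicle and 1567 and 1962 bp after treatment (difference 1143 bp, SE 239, limma adjusted p = 0.245). LINC01220 had 1418 and 1341 bp, then 2595 and 2017 bp, LINC02298 had 1664 and 1529 bp, then 2197 and 2832 bp, and LINC01023, which had no vehicle H3K27me3, had 1543 and 1499 bp, then 2004 and 2232 bp. Treated values were above vehicle values in each of these, as the choice of members with separated groups requires.

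On the lower side, the farthest apart was LINC01994, with 7456 bp and 7448 bp in vehicle and 6776 bp and 3932 bp with EPZ011989. Its vehicle replicates nearly coincided, while the treated ones differed by more than the gap to vehicle, and the difference of -2098 bp (SE 937) had a limma adjusted p of 0.559. LINC01235 had 2559 and 2727 bp in vehicle and 1869 and 1892 bp with treatment (difference -762.5 bp, SE 188, limma adjusted p = 0.307). LINC02348 had 636 and 932 bp, then 0 and 0 bp (difference -784 bp, SE 177, limma adjusted p = 0.279), and LINC01497 had 1569 and 1544 bp, then 391 and 995 bp. The groups were apart in all 4 genes, and none passed the adjusted test.

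**Figure D4:**
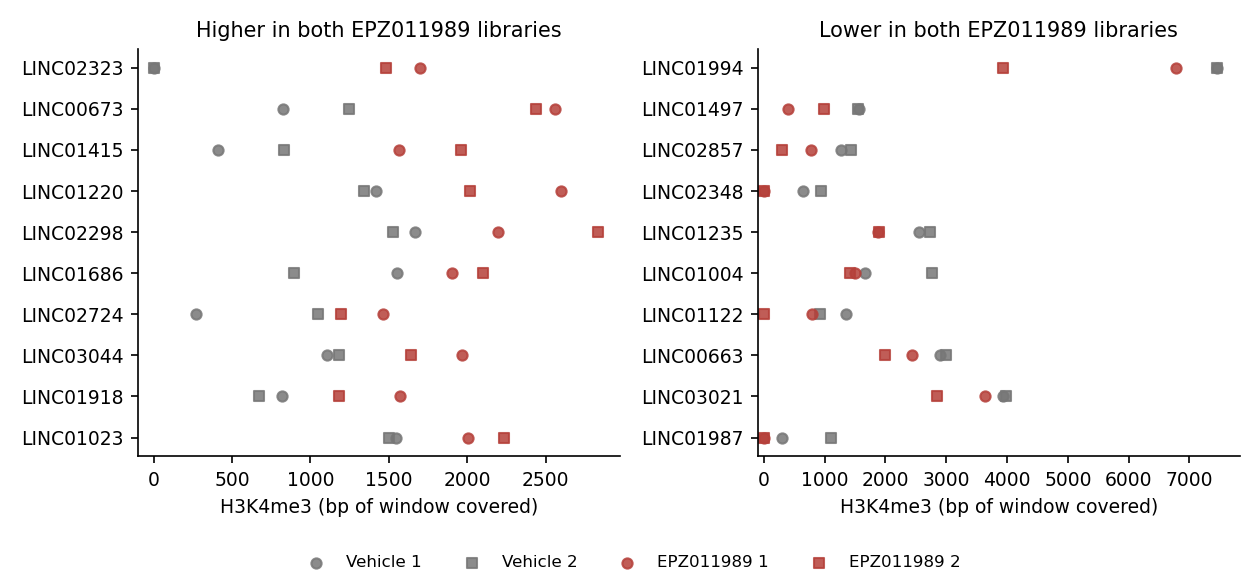
H3K4me3 (horizontal axis, bp of window covered) in each of the 4 libraries for the 10 members with the largest increase (left) and the 10 with the largest decrease (right) among those whose groups do not overlap. LINC02323 goes from 0 bp to 1701 and 1481 bp; in LINC01994 the treated values, 6776 and 3932 bp, lie far from each other.

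Gains and losses of whole H3K4me3 peaks were few and of similar number. A peak was present in both treated libraries and in neither vehicle library at 8 members (0.413%, beside 0.780% of all genes), and the reverse held at 10 (0.516%, beside 0.238%). Of the 8, 5 came from the 346 members with H3K27me3 in both vehicle libraries and no vehicle H3K4me3 (1.45%, beside 5.51%), and 2 from the 1246 with neither mark (0.161%, beside 0.105%). Leaving out a library loosens the rule, so the counts of gains and losses could then only stay equal or rise. Without EPZ011989 replicate 2, 30 members gained a peak. Losses numbered 30 without EPZ011989 replicate 1, 17 without vehicle replicate 1 and 16 without vehicle replicate 2.

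After LINC02323 the gained peaks were short. LINC01167 had 582 and 551 bp of H3K4me3 in the treated libraries and 5898 bp of H3K27me3 in each vehicle library, and LINC00937 had 575 and 525 bp, with 3577 and 5001 bp of vehicle H3K27me3. In LINC01585 (567 and 378 bp) and LINC00974 (306 and 366 bp) the new peaks lay beyond the end of the gene, in LINC01585 between 5170 and 5736 bp and between 5322 and 5699 bp from the start. LINC02794 had 462 and 34 bp, and LINC01993 (533 and 410 bp) and LINC02812 (399 and 356 bp) had no vehicle H3K27me3. All 8 had 0 bp in both vehicle libraries. Among lost peaks, LINC01987 went from 302 and 1096 bp to 0 and LINC01975 from 270 and 1042 bp to 0; LINC00323, with 454 and 401 bp in vehicle, carried 7482 and 9405 bp of vehicle H3K27me3, whereas 7 of the 10 had none.

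**Figure D5:**
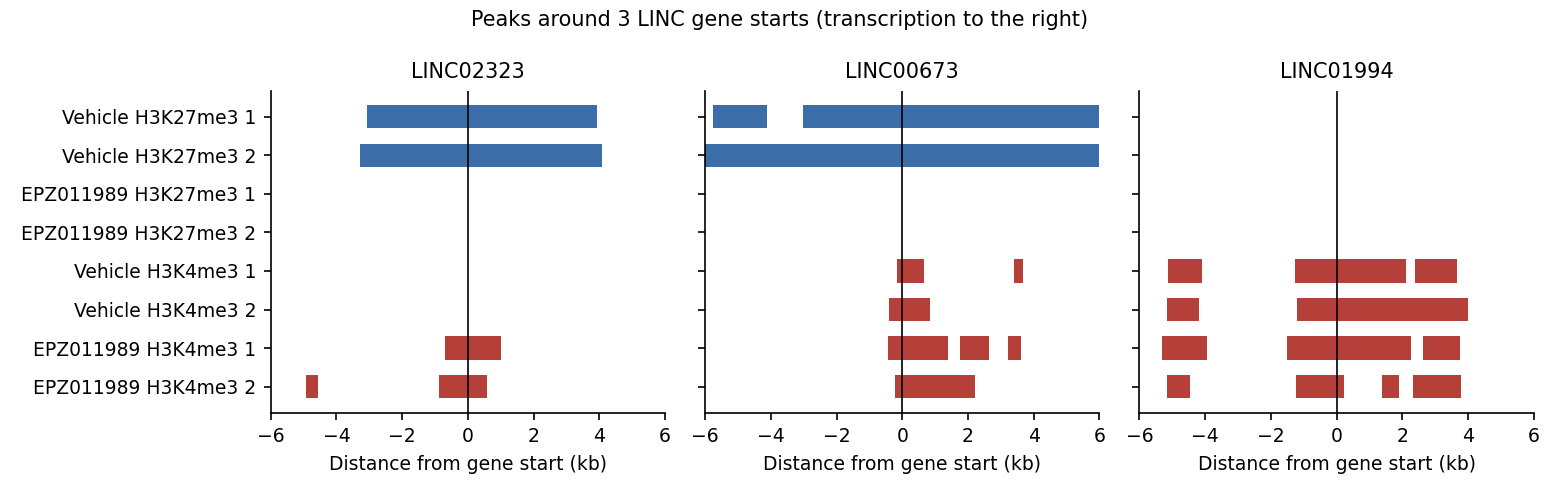
Peaks in the 8 H3K27me3 and H3K4me3 libraries (rows) within 6 kb of 3 gene starts, drawn in the direction of transcription (horizontal axis, kb). LINC02323 has H3K27me3 in vehicle only and H3K4me3 at the start with EPZ011989 only, LINC00673 has a wider H3K4me3 peak with EPZ011989, and LINC01994 has H3K4me3 in all 4 libraries without H3K27me3.

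The 6 members with the widest vehicle H3K4me3 and no H3K27me3 still had H3K4me3 peaks after treatment. LINC01558 had 5001 bp in each of the 4 libraries, the whole window at its start, so no change in width could show there; its peaks were 5467 and 6461 bp long in vehicle and 5759 and 5377 bp with EPZ011989. LINC02106 had 4623 and 4189 bp in vehicle and 4426 and 4064 bp with EPZ011989, and LINC01357 had 4372 and 4160 bp, then 4376 and 4278 bp. LINC01413 (3944 and 4882 bp, then 4131 and 3621 bp) and LINC00867 (4004 and 4394 bp, then 4105 and 3171 bp) varied more between replicates. In these 4 genes the vehicle and treated values overlapped, whereas in LINC01994, the other of the 6, both treated values lay below both vehicle values.

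At the 68 members with both marks in both vehicle libraries, the peaks of the marks shared bases in both replicates at 54 and in neither at 9. The shared stretch had a median of 608 bp in replicate 1 and 825 bp in replicate 2. A bulk assay cannot tell whether both marks were on the same chromosome copy or in different cells.

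A list of 32 LINC genes studied in cancer or development held 17 members. Vehicle H3K27me3 was in both libraries at 7, H3K4me3 at 3, and 7 had no mark, beside 21.99%, 10.53% and 64.3% of all members and 31.4%, 45.0% and 36.2% of all genes. With 17 members chosen for having been studied, nothing is read from these counts. LINC01503, studied in squamous carcinoma, had 9948 and 10002 bp of H3K27me3 in vehicle and 0 bp in both treated libraries (limma adjusted p = 2.8e-05). LINC01116 had 5001 and 6136 bp, then 0 (limma adjusted p = 0.00778), LINC00958 had 2103 and 2375 bp, LINC00668 had 3637 and 4072 bp, and LINC01234 had 2294 and 3812 bp, all 0 after treatment and lower at limma adjusted p-values of 0.00277, 0.00233 and 0.048. LINC00511, with 1930 and 4309 bp in vehicle, and LINC00941, with 1106 and 2657 bp, also had 0 bp after treatment. Their changes were -3119.5 bp (SE 1055) and -1881.5 bp (SE 688), with limma adjusted p-values of 0.11 and 0.127. The SE at LINC00941 was near that at LINC01234 (SE 673), whose change was larger, at -3053 bp. All of these genes had 0 bp in both treated libraries and entered the H3K27me3 test through vehicle peaks. The direction was thus set by that filter, and the p-values differ only with the size and agreement of the vehicle values. For H3K4me3, LINC01116 had 1320 and 1601 bp in vehicle and 2121 and 1644 bp with EPZ011989 (limma adjusted p = 0.669), and LINC00662 had 1779 and 1849 bp, then 1773 and 1513 bp (limma adjusted p = 0.842). LINC01122 had 1352 and 928 bp, then 794 and 0 bp (limma adjusted p = 0.542). LINC-ROR, which is known from reprogramming to pluripotency, and LINC00460, LINC00520, LINC00707, LINC00839, LINC01139 and LINC00052 had neither mark in vehicle.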

How the data were processed

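CUT&RUN peak lists of 12 libraries on hg38 were used as deposited, 1 list for each library. Per the submitters' processing notes, MACS2 2.1.1.20160309 was used, along with SAMtools 0.1.19, FastQC and Bowtie2 2.2.9; thresholds, the control and any use of the spike-in are not given in the sources used here. H3K27me3 lists were deposited as broad peaks and the others as narrow peaks. Each peak carries in the deposited columns, which follow the MACS2 layout, a score, a fold (a ratio to local background), a −log10 p and a −log10 q, all as the authors' software wrote them. No read counts were used, so depth is unknown and broad and narrow lists were never compared by height.

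Covered base pairs of each window were computed with Python 3.11.15, numpy 2.4.6 and pandas 2.3.3, using gene bodies of the RefSeq GRCh38.p14 table; strand came from the promoter table, which matched 1310 of 1937 members, 1280 of them with a start within 5 bp of a gene end. A window counted as marked when a peak overlapped it by at least 1 bp. Differences were tested with limma 3.58.1 (trend and robust, R 4.3.3) on every coding and lncRNA gene of chromosomes 1 to 22 whose window held a peak of the mark in 1 or more libraries, adjusted over all of them at 0.05; the filter leaves genes that had to differ where only 1 group had peaks. Sums were tested by exact permutation (scipy 1.17.1). The limma step was also run on simulated data with normal noise, in which unchanged genes kept vehicle-like values. The treated H3K27me3 lists were nearly empty instead, so that run does not bear on the H3K27me3 calls. The spread is that of covered length, which cannot exceed the window, so a wide domain has no spread.

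Alternatives were windows of 1000 and 5000 bp, the start window alone, a −log10 q of at least 5, quantile normalization, no filter, an overlap of 250 bp, a distance of 20 kb, a replicate block and leaving out each library. Genes were named by rule: the 12 widest in vehicle H3K27me3 (ties broken by region length, 1 for each region), those with treated H3K27me3, the 10 largest H3K4me3 differences each way with groups apart, gained and lost peaks, the 6 widest in H3K4me3 without H3K27me3, the listed LINC genes and the 3 genes on each side of the 5 kb limit. Members and lists were chosen with earlier results of these data known.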

Additional observations from a re-analysis of the deposited data

How the results depend on the processing

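The lower H3K27me3 at LINC windows kept its direction in the alternatives run except after quantile normalization, which forces equal totals and gave 219 members lower and 181 higher against 323 and 0. In the other alternatives the treated H3K27me3 lists held almost no peaks at members. The direction was thus fixed in advance, and its persistence is no support for it. Lower members numbered 194 in the start window and 134 at the stricter q, and 151 to 530 when 1 library was left out, where the lone library is assumed to vary like the other group and the upper end follows from treated values at 0 bp. Members with H3K27me3 in both vehicle libraries numbered 259 in the start window and 153 at the stricter q, against 426, and 463 to 532 with 1 vehicle library. No H3K4me3 member passed except LINC02323, the 1 higher member with 5000 bp windows and the 1 after quantile normalization. The median H3K4me3 difference, 27.5 bp, was -158.5 bp after quantile normalization and -153.5 to 174 bp with 1 library left out. The summed H3K4me3 difference, 0.02 (log2), was -0.0068 with 5000 bp windows, -0.0067 beyond 20 kb, and -0.17 to 0.19 with 1 library left out. Gained peaks numbered 2 in the start window, 5 beyond 20 kb and 9 to 30 with 1 library left out, against 8. Lost peaks numbered 6 in the start window and 12 to 30 with 1 library left out, against 10. Apart from fewer windows or libraries by construction, the cause was not tested. The robust fit could not be made without a filter; limma without it, added after the data were seen, gave 258 lower for H3K27me3 and 0 for H3K4me3.

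Whether same-numbered vehicle and treated libraries are paired is not known. Their deviations from the group means correlated at 0.02 (H3K27me3) and -0.03 (H3K4me3). For H3K27me3 only 85 and 5 of all genes had a peak in EPZ011989 replicates 1 and 2. The treated deviations were thus 0 almost everywhere, and that correlation cannot tell whether the replicates are paired. With the replicate number as a block, 222 members were lower in H3K27me3 and 0 changed in H3K4me3, and LINC03057 and LINC02086 had limma adjusted p-values of 0.0673 and 0.0623. Summed H3K27me3 has no log2 difference at the stricter q or without EPZ011989 replicate 1, where the treated sum is 0.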

Other observations

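The share of LINC windows with H3K27me3 in both vehicle libraries ranged widely between chromosomes, and so did the share over all genes of each chromosome. On chromosome 19 it was 17 of 30 members (56.7%, exact 95% binomial interval 37.4 to 74.5), beside 63.7% of all genes there. On chromosome 17 it was 27 of 56 (48.2%, 34.7 to 62.0), beside 46.1%, and on chromosome 22, 10 of 22 (45.5%, 24.4 to 67.8), beside 27.5%. On chromosome 4 it was 6 of 129 (4.65%, 1.73 to 9.85), beside 18.8%, and on chromosome 7, 3 of 53 (5.66%, 1.18 to 15.7), beside 27.4%. H3K4me3 in both vehicle libraries was seen at 5.43% of the members on chromosome 4, beside 37.5% of all genes there, and at 17.0% on chromosome 7, beside 42.0%. The intervals cover counting error only, no test across chromosomes was made, and the chromosomes named here were picked after their values were seen.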
